A study of Mus musculus with 36 samples.

Results

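The genes described here encode the proteins that copy DNA in S phase and the enzymes that supply the deoxynucleotides for it. They are 53 genes chosen by the known role of their products, with earlier results of these data known: 6 subunits of the origin recognition complex, 3 licensing factors (Cdc6, Cdt1 and geminin, Gmnn), 6 subunits of the MCM helicase, 8 helicase activators, 9 polymerase and primase subunits, 6 genes of the sliding clamp and its loader, 3 RPA subunits, 2 genes of flap removal and ligation, 2 fork protection genes, 5 nucleotide supply genes and 3 genes that act on chromatin at the fork. All 53 were measured, among 19938 gene symbols with a transcript cluster of their own on the array. As background, origins are licensed in G1 when the origin recognition complex, Cdc6 and Cdt1 load the MCM helicase onto DNA, and the kinase Cdc7-Dbf4, Cdc45 and the GINS complex turn that helicase on in S phase. Primase and polymerase alpha then start each strand, polymerases epsilon and delta extend it on the clamp PCNA, and ribonucleotide reductase, thymidylate synthase and thymidine kinase feed deoxynucleotides to the fork. Many of these genes are known targets of E2F factors, which drive transcription at the entry into S phase, and bone marrow cultures of this kind hold dividing precursors beside dendritic cells (DCs) that have left the cell cycle.

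RNA came from bone marrow cells of 10 to 12 week old Balb/c mice, with no engineered allele, grown for 6 days with the growth factor GM-CSF at 100 ng/ml. Soluble thrombomodulin (sTM), a recombinant human protein made up of its extracellular domains, was added to some cultures at 200 nM from day 4. Thrombomodulin (TM) is a surface receptor for thrombin, and DCs that carry it (TM+ DCs) were parted from those that do not (TM- DCs) with an antibody and magnetic beads on day 6, at a purity above 93%. Of the 36 arrays, 12 measured sTM-treated sorted cells, 6 for each fraction (experiments 2, 3 and 4), 8 measured untreated sorted cells, 4 for each fraction (experiments 3 and 4), and 16 measured unsorted DCs, 8 with and 8 without sTM (experiments 1, 2 and 3). The labels call the arrays of an experiment biological replicates without saying whether they came from separate mice or cultures, so p-values measure the spread between arrays. Values are log2 intensities, and differences are log2 differences with the standard error (SE) of a linear model (limma) fitted over all 19938 genes with experiment as a random block. Calls were made at 0.05 after Benjamini-Hochberg adjustment.

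Sorted arrays of the same group and experiment correlated at 0.986 to 0.998 over all genes, and those of the same group in other experiments at 0.943 to 0.983. In experiment 1 the 4 unsorted arrays numbered 1 and 2 stood apart from the 4 numbered 3 and 4, with correlations of 0.940 to 0.973 across and 0.989 to 0.993 within these sets, and each set held both treatments. The Thbd transcript, which encodes TM, spanned 5.76 to 6.92 in TM+ DCs and 5.65 to 6.50 in TM- DCs (difference 0.24, SE 0.12, adjusted p = 0.12), so its transcript cluster did not part the fractions. Its lowest values lay near the averages of the B, T and NK markers given below, and background can make differences of dim genes too small. For TM the paper reports a larger change by qPCR than by microarray. The 13 DC markers averaged 9.29 to 9.74 over the TM+ arrays and 9.37 to 9.84 over the TM- arrays, but 7 of them were called higher and 5 lower in TM+ DCs, among the lower Cd83 (-2.19), Ccr7 (-1.41) and Batf3 (-1.05). The 8 markers of B, T and NK cells averaged 5.32 to 5.68 over TM+ and 5.48 to 5.89 over TM- arrays. In whole-fraction RNA, a larger share of dividing cells and more of a transcript in each cell cannot be told apart. By flow cytometry of sorted cells from sTM-treated cultures, the paper reports a larger share of TM+ than of TM- DCs in S phase. The arrays do not measure that share.

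The promoters are shown because the genes were higher together in TM+ DCs with 3 exceptions, of which Gins3 and Orc5 are printed beside Mcm5, Mcm6 and Rrm2, which differed most between the fractions among genes with a promoter in the table. Each line gives the 250 bases before the transcription start from RefSeq (GRCm38.p6), 5′ to 3′ on the gene's strand, with matches to an E2F motif in capitals:
Mcm5 (chr8:75109259-75109508, + strand): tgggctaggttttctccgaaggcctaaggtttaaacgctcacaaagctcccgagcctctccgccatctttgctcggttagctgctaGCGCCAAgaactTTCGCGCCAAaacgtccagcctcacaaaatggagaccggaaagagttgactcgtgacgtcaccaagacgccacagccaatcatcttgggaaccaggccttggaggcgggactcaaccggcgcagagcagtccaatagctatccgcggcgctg
Mcm6 (chr1:128359706-128359955, - strand): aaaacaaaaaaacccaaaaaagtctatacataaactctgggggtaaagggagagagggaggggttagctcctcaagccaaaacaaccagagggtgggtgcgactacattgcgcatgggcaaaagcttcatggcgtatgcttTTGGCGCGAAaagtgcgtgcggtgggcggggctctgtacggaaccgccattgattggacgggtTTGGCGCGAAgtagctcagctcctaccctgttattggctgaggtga
Rrm2 (chr12:24708004-24708253, + strand): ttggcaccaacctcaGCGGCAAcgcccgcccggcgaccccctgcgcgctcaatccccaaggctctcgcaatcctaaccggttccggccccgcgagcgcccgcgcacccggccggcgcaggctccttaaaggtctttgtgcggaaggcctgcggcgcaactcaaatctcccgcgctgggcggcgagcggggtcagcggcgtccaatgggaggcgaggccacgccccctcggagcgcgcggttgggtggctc
Gins3 (chr8:95633309-95633558, + strand): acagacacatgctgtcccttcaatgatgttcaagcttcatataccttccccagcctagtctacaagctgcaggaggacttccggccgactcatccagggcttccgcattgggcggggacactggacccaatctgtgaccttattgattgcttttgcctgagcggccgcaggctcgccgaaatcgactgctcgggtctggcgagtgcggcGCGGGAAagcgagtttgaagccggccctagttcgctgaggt
Orc5 (chr5:22550339-22550588, - strand): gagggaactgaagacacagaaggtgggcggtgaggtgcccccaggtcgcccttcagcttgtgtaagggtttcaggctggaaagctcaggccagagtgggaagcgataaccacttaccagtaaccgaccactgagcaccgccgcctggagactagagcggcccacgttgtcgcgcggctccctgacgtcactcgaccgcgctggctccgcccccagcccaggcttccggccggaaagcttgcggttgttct

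The E2F motif was searched as TTCCCGC, then as TTCGCGC, as well as in the form TTGCCGC and in the form TTGGCGC, on both strands, and matches may overlap, as they do in each of the 2 capital blocks of Mcm6 and in the longer block of Mcm5. Mcm5 holds 3 matches before its start, Mcm6 4, Rrm2 1, Gins3 1 and Orc5 none. Over windows of 300 bases, which add the 50 bases after the start, 44 of the 53 genes had an entry and 28 of these (63.6%) held a match, against 15.4% of 26 genes of mitosis and 10.9% of 27025 genes. With an 8-letter form (a further T before the motif) the shares were 36.4%, 11.5% and 2.6%. The CHR element (TTTGAA or TTCGAA), known from promoters of mitotic genes, was in 20.5% of the replication genes, 80.8% of the mitosis genes and 21.7% of all genes, and the CCAAT box was in 56.8%, 80.8% and 41.1%. Matches were found in 4 of 5 MCM genes, 5 of 7 polymerase and primase genes and 3 of 3 chromatin genes, but in 2 of 5 genes of helicase activation and 2 of 5 of nucleotide supply. The median difference between TM+ and TM- DCs, described next, was 0.87 over the 28 genes with a match and 0.95 over the 16 without. With the 8-letter form the order turned, with 0.93 over the 16 genes with a match and 0.88 over the 28 without. Of the 3 exceptions, Gins3 and Pold3 held a match and Orc5 did not.

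**Figure D1:**
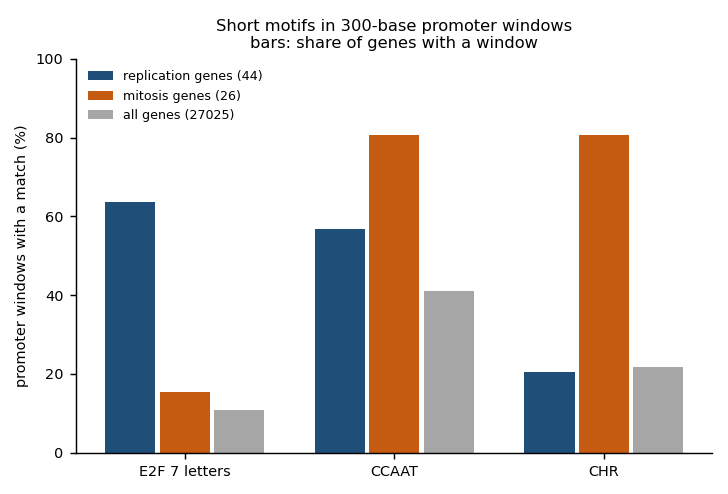
Share of genes (y axis, percent) whose 300-base promoter window holds an E2F motif of 7 letters, a CCAAT box or a CHR element (x axis), for 44 replication genes, 26 mitosis genes and all 27025 genes with a window. The replication genes stand above both other sets for the E2F motif (63.6%), and the mitosis genes for the CHR element (80.8%).

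The first comparison asks how TM+ DCs differ from TM- DCs over both treatments. Of the 53 replication genes, 50 were higher in TM+ DCs and 0 lower, where 18.6% of all 19938 genes were called higher and 37.3% were called in either direction. Their median difference was 0.93, against -0.08 over all genes, and 21 of the 53 differed by more than 1 on the log2 scale, as did 2.9% of all genes. In 41 of the 53 the TM+ array lay above the TM- array in all 10 pairs of the same experiment, treatment and number (8.26% of all genes), and in 23 every TM+ array lay above every TM- array (2.2% of all genes). The number served only to match arrays, since the labels do not say that it pairs them. Markers of other cells moved along: 11 of 14 neutrophil-lineage markers and 8 of 11 monocyte and macrophage markers were higher in TM+ DCs, with 0 and 1 lower. Of 8 markers of hematopoietic progenitors, 3 were higher and 1 lower, and of 9 markers of eosinophils, basophils and mast cells 2 were higher and 0 lower. The neutrophil-lineage list averaged 7.26 to 9.36 over TM+ arrays and 6.91 to 7.82 over TM- arrays, and the monocyte and macrophage list 9.22 to 9.61 and 8.16 to 8.67. The part of these cells in the difference of the replication genes was not tested.

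**Figure D2:**
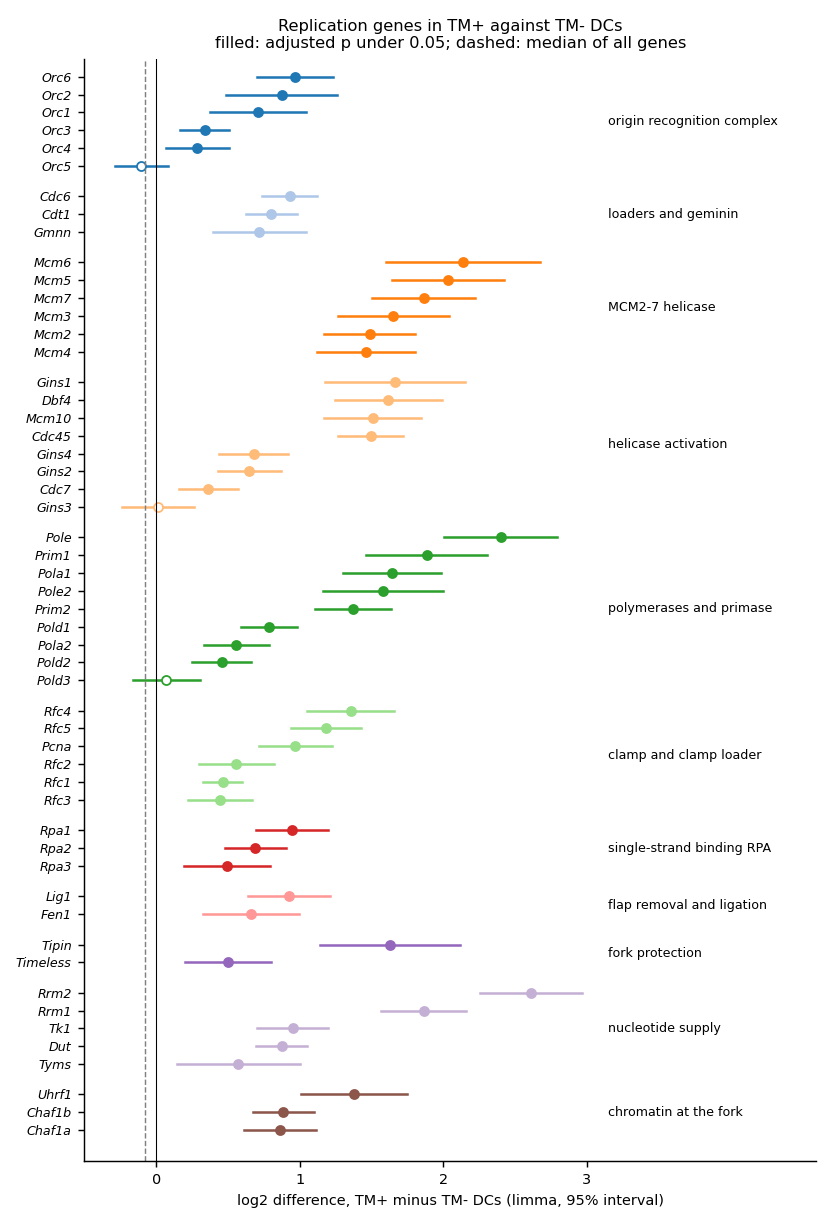
Log2 difference of TM+ minus TM- DCs (x axis) for each of the 53 genes, grouped by role, with its 95% interval from the linear model; filled points passed the test and the dashed line is the median of all genes (-0.08). The MCM subunits lie together between 1.46 and 2.14, while the origin recognition complex, GINS and polymerase delta subunits spread down to 0.

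The licensing genes split. The origin recognition complex marks origins, and its 6 subunits had the lowest median difference of the licensing groups, 0.52. Orc6 differed most among them, with 8.0 to 9.28 (median 8.34) in TM+ DCs and 7.13 to 7.99 (median 7.68) in TM- DCs, a difference of 0.97 (SE 0.13, adjusted p = 4.17e-06). Its groups did not overlap. Orc2 (0.87), Orc1 (0.71), Orc3 (0.34) and Orc4 (0.29) were also higher. The limma call of Orc4 (adjusted p = 0.037) was not firm. It was lost under many alternatives, among them quantile normalization, no experiment term and leaving out experiment 4. Orc5, the subunit that went against the rest, had 8.09 to 8.85 (median 8.49) in TM+ DCs and 8.24 to 8.93 (median 8.62) in TM- DCs, so the groups overlapped almost wholly (difference -0.10, 95% interval -0.29 to 0.08, adjusted p = 0.348). It was higher in the TM+ array of 3 of 10 pairs.

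Cdc6 and Cdt1 load the MCM helicase, and geminin holds Cdt1 back once S phase has begun. All 3 were higher in TM+ DCs, the inhibitor with the loaders, by 0.93 (Cdc6), 0.80 (Cdt1) and 0.72 (Gmnn). Cdc6 had 7.04 to 7.91 (median 7.57) in TM+ DCs and 6.31 to 6.99 (median 6.50) in TM- DCs, with no overlap (SE 0.09, adjusted p = 1.09e-07).

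The 6 MCM subunits form the ring of the replicative helicase, and all 6 were higher. Their differences ran from 1.46 to 2.14 (median 1.76), and none of the 6 overlapped between the groups. Mcm6 was at 7.99 to 10.14 (median 8.73) in TM+ DCs and at 5.84 to 7.47 (median 6.84) in TM- DCs, a 4.40-fold difference (2.14, SE 0.26, adjusted p = 1.5e-06). The subunit that differed least, Mcm4, was at 8.32 to 10.004 (median 8.74) in TM+ DCs and at 7.28 to 8.19 (median 7.56) in TM- DCs (1.46, SE 0.17, adjusted p = 6.35e-07). In both genes the highest arrays were the 2 TM+ arrays of the untreated cultures of experiment 4.

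Genes that activate the helicase were unequal. Gins1, Gins2, Gins3 and Gins4 encode the 4 subunits of 1 complex, GINS, yet differed by 1.66, 0.65, 0.01 and 0.68. Gins1 had 5.65 to 8.15 (median 6.16) in TM+ DCs and 4.999 to 5.27 (median 5.14) in TM- DCs (SE 0.23, adjusted p = 9.7e-06), with all TM- arrays close together and the 4 TM+ arrays of experiment 4 highest, at 7.78 to 8.15. Its TM- values lay below the averages of the B, T and NK markers over TM- arrays (5.48 to 5.89). They may be background, which can hold values together and make the difference too small. Gins3 had 6.64 to 7.88 (median 7.21) in TM+ DCs and 6.97 to 7.56 (median 7.22) in TM- DCs, a difference of 0.01 with a 95% interval of -0.24 to 0.26 (adjusted p = 0.94). It was higher in the TM+ array of 5 of 10 pairs, and its sign turned under several alternatives. Dbf4, the partner that switches on the kinase Cdc7, differed by 1.62, but Cdc7 itself by 0.36. Mcm10 (1.51) and Cdc45 (1.49), which join the active helicase, stood with Gins1.

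**Figure D3:**
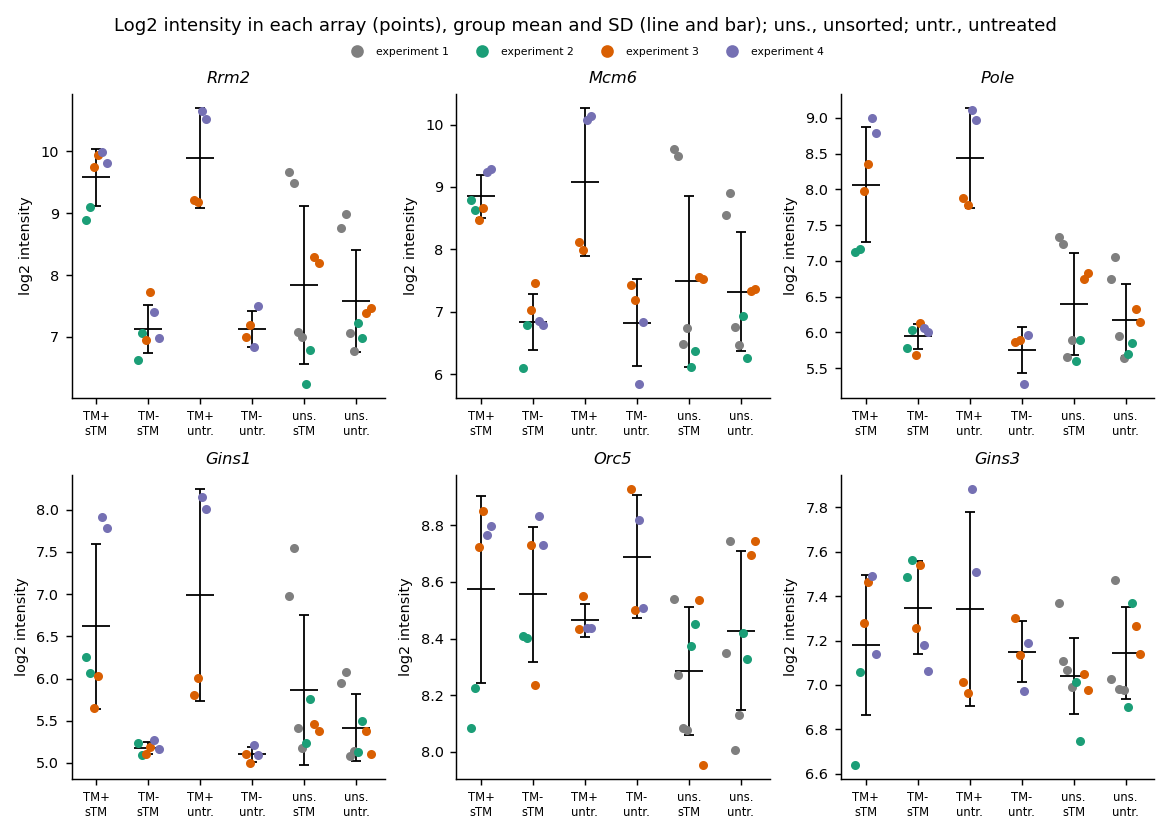
Log2 intensity (y axis) of 6 genes in each of the 36 arrays, by group (x axis) and coloured by experiment, with the group mean and SD. Rrm2, Mcm6, Pole and Gins1 are higher in TM+ than in TM- DCs, most so in experiment 4, Orc5 and Gins3 overlap, and 4 unsorted arrays of experiment 1 are the highest unsorted arrays for Rrm2, Mcm6 and Gins1.

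Among the polymerases, the catalytic subunit of polymerase epsilon, Pole, which extends the leading strand, differed most. It had 7.12 to 9.11 (median 8.17) in TM+ DCs and 5.28 to 6.13 (median 5.93) in TM- DCs, a 5.28-fold difference (2.40, SE 0.19, adjusted p = 4.84e-09). The primase subunits Prim1 (1.89) and Prim2 (1.37), the catalytic subunit of polymerase alpha, Pola1 (1.64), and Pole2 (1.58) followed. The other polymerase alpha subunit, Pola2, differed by 0.56. The subunits of polymerase delta, which extends the lagging strand, differed by 0.79 (the catalytic Pold1), 0.46 (Pold2) and 0.07 (Pold3). Pold3 had 8.23 to 9.82 (median 9.65) in TM+ DCs and 8.90 to 9.60 (median 9.45) in TM- DCs (95% interval -0.16 to 0.31, adjusted p = 0.62). Its 2 lowest sorted arrays were the TM+ arrays of experiment 2, and without that experiment it was called higher by limma (0.19).

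RFC loads the clamp PCNA at primed ends. All 6 genes of clamp and loader were higher, in steps from Rfc4 (1.35) and Rfc5 (1.18) through Pcna (0.97) and Rfc2 (0.56) to Rfc1 (0.46) and Rfc3 (0.45). Rfc4 was at 8.40 to 10.33 (median 9.61) in TM+ DCs and at 7.81 to 8.51 (median 8.18) in TM- DCs (SE 0.15, adjusted p = 3.52e-07), with the lowest TM+ arrays in experiment 2. Rfc3 was at 8.42 to 9.02 (median 8.75) in TM+ DCs and at 7.73 to 8.73 (median 8.23) in TM- DCs (SE 0.11, adjusted p = 0.00233), and its groups overlapped. Pcna, Rpa3 and Tk1 each have a second transcript cluster of the same symbol, which gave differences of 0.98, 1.06 and 1.09 beside the 0.97, 0.49 and 0.95 of the brighter clusters used here. Which cluster of each measures the gene and which a near-identical copy is not known, so the sizes of these 3 are uncertain, though both clusters of each gave differences above 0.

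Behind the fork, RPA coats single-stranded DNA, and Rpa1 led its 3 subunits with 8.33 to 9.42 (median 8.90) in TM+ DCs and 7.64 to 8.43 (median 7.83) in TM- DCs (0.94, SE 0.12, adjusted p = 3.07e-06). Rpa2 differed by 0.69. The ligase Lig1, which seals Okazaki fragments, was at 7.90 to 9.50 (median 8.36) in TM+ DCs and at 7.36 to 7.87 (median 7.63) in TM- DCs (0.93, SE 0.14, adjusted p = 1.89e-05), and the flap nuclease Fen1 differed by 0.66. Timeless and Tipin form a complex that steadies the fork, and they were unequal: 1.63 for Tipin (SE 0.23, adjusted p = 1.26e-05) and 0.50 for Timeless (SE 0.14, adjusted p = 0.00957). Tipin spanned 6.84 to 9.34 (median 8.29) in TM+ DCs and 5.92 to 7.55 (median 6.41) in TM- DCs.

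Ribonucleotide reductase makes deoxynucleotides from ribonucleotides, and its small subunit Rrm2, the subunit that limits it outside S phase, had the largest difference of the 53 genes. Rrm2 was at 8.90 to 10.66 (median 9.78) in TM+ DCs and at 6.63 to 7.72 (median 7.02) in TM- DCs, a 6.11-fold difference (2.61, SE 0.17, adjusted p = 5.13e-10). The nearest arrays of the groups lay more than 1 apart on the log2 scale. The large subunit Rrm1 differed by 1.86, the thymidine kinase Tk1 by 0.95 and the dUTPase gene Dut by 0.88. Thymidylate synthase, Tyms, differed least, with 7.93 to 10.21 (median 8.96) in TM+ DCs and 7.73 to 9.09 (median 8.61) in TM- DCs (0.57, SE 0.21, adjusted p = 0.0345). Its call rested on experiment 4: without it the difference was -0.05 (adjusted p = 0.917). At the fork's chromatin, Uhrf1, which guides maintenance methylation, was at 7.07 to 8.84 (median 7.95) in TM+ DCs and at 6.14 to 7.11 (median 6.48) in TM- DCs (1.38, SE 0.18, adjusted p = 3.26e-06), and the chromatin assembly subunits Chaf1b and Chaf1a differed by 0.89 and 0.86.

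Set side by side, the median differences were 1.76 for the MCM helicase, 1.37 for polymerases and primase, 1.09 for helicase activation, 1.07 for fork protection, 0.95 for nucleotide supply, 0.89 for chromatin at the fork, 0.80 for the licensing factors, 0.79 for flap removal and ligation, 0.76 for clamp and loader, 0.69 for RPA and 0.52 for the origin recognition complex. The difference between these groups was not tested. Differences between 2 genes are also differences between their probe sets, so a smaller value does not show a smaller change in the transcript.

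The difference was larger in experiment 4 than in the other experiments. Within experiments, the median over the 53 genes was 0.65 in experiment 2, 0.63 in experiment 3 and 1.15 in experiment 4 for sTM-treated cultures, and 0.60 in experiment 3 and 1.60 in experiment 4 for untreated cultures. Between 49 and 52 of the 53 genes were above 0 in each of these 5 comparisons. In the order given, 46.6%, 32.0%, 38.9%, 56.8% and 35.8% of all genes were above 0. In untreated cultures alone 46 genes were called higher and 0 lower (13.2% of all genes called higher), and in sTM-treated cultures 40 and 0 (11.6%). Without experiment 4, 17 genes were called in untreated cultures, where only the arrays of experiment 3 remain, and 34 over both treatments. These fits rest on fewer arrays, and their shares of all genes called are not given here. Rrm2 differed by more than 2 in every experiment: TM+ minus TM- was 2.16, 2.51 and 2.71 in experiments 2, 3 and 4 with sTM, and 2.11 and 3.42 in experiments 3 and 4 without. Mcm6 varied more, at 2.27, 1.32 and 2.45 with sTM and 0.75 and 3.77 without.

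**Figure D4:**
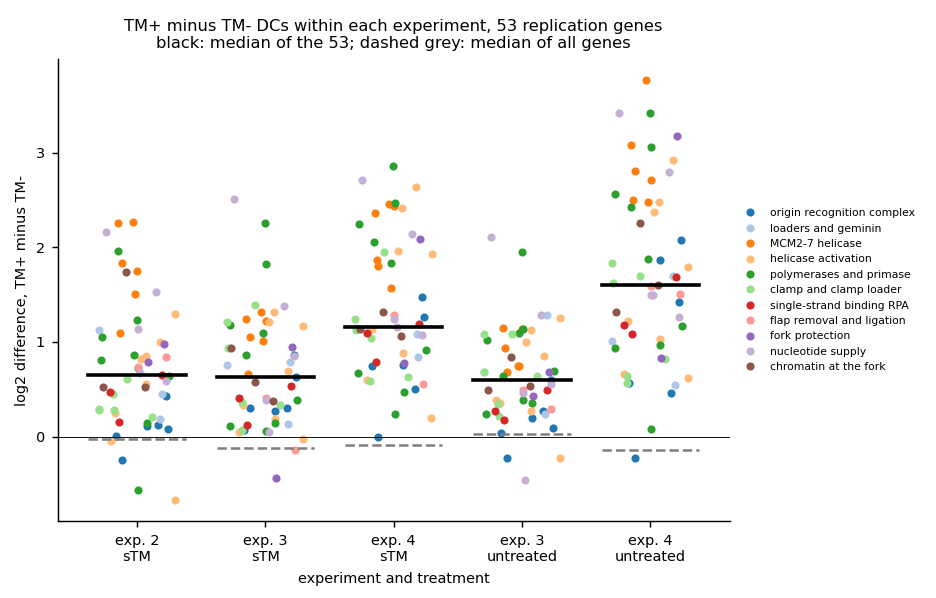
Log2 difference of TM+ minus TM- DCs (y axis) within each experiment and treatment (x axis), with 1 point per gene coloured by role, the median of the 53 genes in black and that of all genes in dashed grey. The 53 genes lie mostly above 0 in all 5 comparisons, with the highest median, 1.60, in the untreated cultures of experiment 4.

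Genes that work beside the 53 were read from lists chosen by role, with earlier results of these data known. Of all 19938 genes, 18.6% were called higher in TM+ DCs over both treatments and 37.3% were called in either direction. Of 34 other replication factors, 24 were higher in TM+ DCs and 0 lower, led by Ticrr (1.88), which brings Cdc45 to origins, the nuclease Dna2 (1.72) and the fork protein Wdhd1 (1.48). Of 11 other histone chaperones and maintenance methylation genes, 9 were higher, among them the chaperone Asf1b (2.76), the remodeller Hells (1.50) and Mms22l (1.26). Of 14 E2F factors and S-phase cyclins, 12 were higher, led by the E cyclins Ccne2 (1.26) and Ccne1 (1.25) and by the repressor E2f8 (1.18), and E2f5, a repressor known from resting cells, was lower (-1.10). Of 19 genes of purine and pyrimidine synthesis, 16 were higher, led by Gart (1.24), Ctps (1.20) and Prps2 (0.99), and 1 was lower, Impdh1 (-0.92), the constitutive isoform of IMP dehydrogenase. Other deoxynucleotide enzymes were mixed, with 11 of 19 higher (Shmt2 1.74, Dck 1.23, Dtymk 1.23) and 2 lower, both of pyrimidine breakdown or salvage (Upp1 -1.10, Cda -0.37). All 29 measured genes of mitosis were higher, with a median of 2.13 and the largest differences in Ccnb2 (3.41), Anln (3.23) and Kif11 (3.09), so the mitosis list stood above the 53 replication genes in this contrast. Their medians within experiments were 1.34 in experiment 2, 1.69 in experiment 3 and 2.68 in experiment 4 with sTM.

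The second comparison asks what sTM changed. In sorted DCs, over both fractions, limma called 0 of the 53 genes, and 0 were below an unadjusted p of 0.05, where 0.015% of all genes were called and 8.06% were below an unadjusted p of 0.05. The differences ran from -0.24 to 0.20, with 95% intervals that reached 0.28 (median) and at most 0.58 to either side. These intervals are not adjusted for the number of genes tested, so changes larger than this could also go uncalled. The 5 genes with the smallest p were Cdc6 (0.20, interval -0.01 to 0.40), Rfc1 (0.14, interval -0.01 to 0.28), Cdc7 (-0.19, interval -0.41 to 0.03), Cdt1 (-0.16, interval -0.35 to 0.03) and Mcm2 (-0.24, interval -0.58 to 0.09). With weights on the arrays, Cdt1 (-0.22, adjusted p = 0.0396) and Rrm1 (0.32, adjusted p = 0.0405) were called, as were 9.23% of all genes.

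Within TM+ DCs, the experiments went opposite ways. The sTM-treated minus untreated difference was above 0 for 40 of the 53 genes in experiment 3 (36.5% of all genes) and for 12 in experiment 4 (49.3% of all genes), and 32 genes were above 0 in experiment 3 and below it in experiment 4, as were 16.4% of all genes. Mcm2, for example, had 8.56 and 8.70 in sTM-treated and 8.51 and 8.58 in untreated TM+ DCs of experiment 3, but 9.28 and 9.11 in sTM-treated and 10.15 and 9.99 in untreated TM+ DCs of experiment 4. The untreated TM+ DCs of experiment 4 held the highest Mcm2 values of all groups. In TM- DCs the difference was above 0 for 35 genes in experiment 3 (66.1% of all genes) and 40 in experiment 4 (44.5%). Fitted over the experiments, 9 of the 53 genes were above 0 in TM+ DCs (44.6% of all genes) and 43 in TM- DCs (59.7%). The count in TM+ DCs turned to 44 with array weights and to 36 without experiment 4, and in TM- DCs these gave 41 and 32. Experiment 2 has sTM-treated but no untreated sorted arrays, and without it the counts were 19 in TM+ and 39 in TM- DCs. Of the 53, limma called 0 in TM+ DCs (0.853% of all genes) and 0 in TM- DCs (0% of all genes), with 3 and 0 below an unadjusted p of 0.05 (10.2% and 3.62% of all genes). The 3 were Cdc6 (0.28), Cdt1 (-0.27) and Cdc7 (-0.35). Without experiment 3, Orc1 (-1.12), Mcm2 (-0.92), Fen1 (-0.78) and Chaf1a (-0.67) were called lower in sTM-treated TM+ DCs (1.79% of all genes called). With array weights Cdc6 (0.36) and Tyms (0.72) were called higher (6.18% of all genes called), and without experiment 4 Tyms was (0.90, 3.19% of all genes called).

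For the interaction, the sTM difference of the TM- fraction was subtracted from that of the TM+ fraction. This term was above 0 for 6 of the 53 genes (39.5% of all genes) and below 0 for 47, with a median of -0.25, but 0 were called (0.01% of all genes called) and 1, Rfc5, was below an unadjusted p of 0.05 (6.15% of all genes). Rfc5 differed by -0.55 (95% interval -1.04 to -0.06, adjusted p = 0.744), Pold2 by -0.41 (interval -0.82 to 0.00, adjusted p = 0.811) and Orc1 by -0.65 (interval -1.32 to 0.02, adjusted p = 0.812). The sign of the term depended on the fit: with array weights 33 of the 53 genes were above 0 (median 0.03), and without experiment 4 28 were, with 0 called in either. Without experiment 2, which has no untreated sorted arrays, 15 were above 0 (median -0.12) and 0 were called. Without experiment 3, 4 genes were called (1.5% of all genes), Orc1 (-1.43), Mcm2 (-0.94), Mcm3 (-0.98) and Tipin (-1.65), each at an adjusted p of 0.0186 to 0.047. Within TM+ DCs, 5 of 14 neutrophil-lineage markers were lower and 0 higher with sTM than without (0.471% of all genes called lower). Their list averages were 7.26 to 8.74 with sTM (experiments 2, 3 and 4) and 8.63 to 9.36 without (experiments 3 and 4). For the interaction 0 of these 14 markers were called, and their part in the term of the replication genes was not tested.

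The third comparison sets sTM-treated against untreated unsorted DCs. In limma, 0 of the 53 genes were called, 0 of all 19938 genes were called (0%), and 1 of the 53 was below an unadjusted p of 0.05, as were 4.71% of all genes. That gene was Tk1, which salvages thymidine: it had 7.26 to 8.66 (median 7.91) in sTM-treated and 7.06 to 7.77 (median 7.67) in untreated unsorted DCs, a difference of 0.37 (95% interval 0.08 to 0.65, adjusted p = 0.936), and its groups overlapped. Mcm7 (0.57, interval -0.17 to 1.32), Gins1 (0.45, interval -0.14 to 1.04), Rfc5 (0.32, interval -0.06 to 0.71) and Timeless (0.20, interval -0.05 to 0.45) had the next smallest p. Without regard to the test, 46 of the 53 genes were above 0, as were 53.9% of all genes, with a median of 0.18 against 0.01.

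The shift was largest in part of experiment 1. In its same-numbered arrays, 52 of the 53 genes were above 0 in pair 1 (median 0.59, 46.1% of all genes) and 46 in pair 2 (median 0.49, 58.1%), but 28 in pair 3 (median 0.02, 42.9%) and 30 in pair 4 (median 0.05, 47.3%). In experiment 2 the counts were 26 (46.7% of all genes) and 35 (52.5%), and in experiment 3 they were 43 (58.0%) and 34 (62.9%). Mcm7 had 9.85 and 9.96 in the sTM-treated and 8.64 and 8.81 in the untreated arrays numbered 1 and 2, against 7.13 and 7.61 in the sTM-treated and 7.48 and 6.97 in the untreated arrays numbered 3 and 4. Without the 4 arrays numbered 1 and 2, a choice made after seeing them, the median over the 53 genes was 0.07, 37 were above 0 and 0 were called. Without experiment 1 the median was 0.09 and 39 were above 0.

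**Figure D5:**
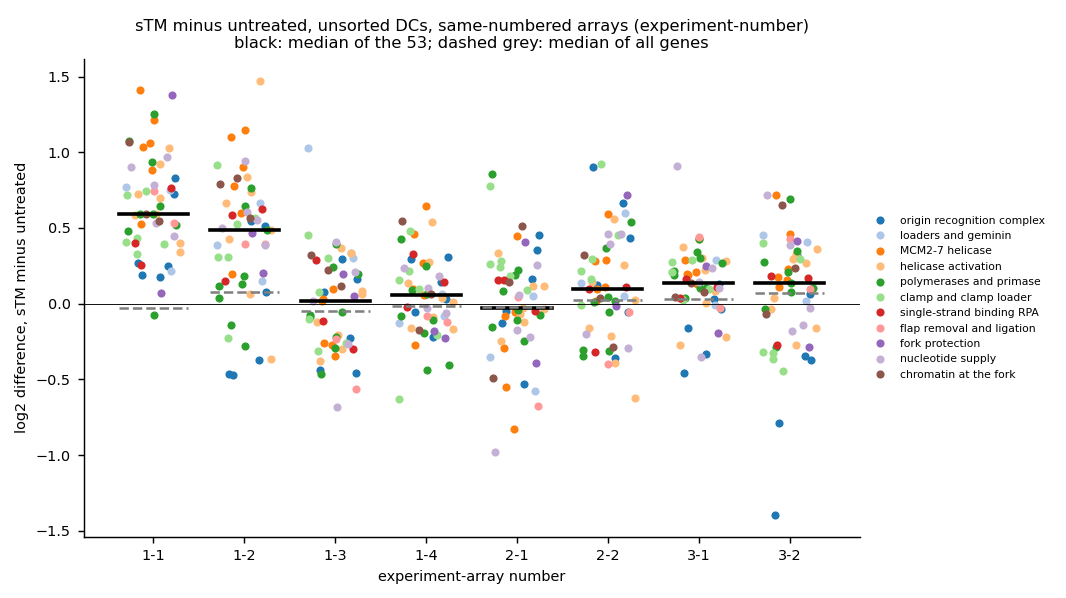
Log2 difference of sTM-treated minus untreated unsorted DCs (y axis) in each of 8 pairs of same-numbered arrays (x axis, experiment and number), with 1 point per gene coloured by role and the medians of the 53 genes (black) and of all genes (dashed grey). The pairs 1-1 and 1-2 stand above the rest, with medians of 0.59 and 0.49.

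The 2 sets of arrays in experiment 1 also differed from each other in these genes more than the treatments did. In 46 of the 53 genes the 4 arrays numbered 1 and 2 all lay above the 4 numbered 3 and 4 (19.3% of all genes), with a median difference of 1.01 over the 53 genes, 2.02 over the MCM subunits and 1.79 over the mitosis list. Rrm2 had 9.66 and 9.48 in sTM-treated and 8.76 and 8.98 in untreated arrays numbered 1 and 2, against 7.08 and 6.998 in sTM-treated and 7.06 and 6.76 in untreated arrays numbered 3 and 4. The monocyte and macrophage markers averaged 9.46 to 9.84 in the arrays numbered 1 and 2 and 8.65 to 8.78 in those numbered 3 and 4, and the neutrophil-lineage markers 7.81 to 8.41 and 7.14 to 7.26. Both sets held both treatments, and what the numbers stand for is not given in the labels, so what parts the sets is not known.

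Unsorted DCs hold both fractions, and in experiment 3 they lay between them. The unsorted mean was above that of TM- DCs and below that of TM+ DCs for 35 of the 53 genes in sTM-treated cultures of experiment 3 (10.6% of all genes) and for 40 in its untreated cultures (28.3%), but for 22 in the sTM-treated cultures of experiment 2 (17.0%). In that experiment unsorted minus TM- had a median of -0.0033 over the 53 genes, and TM+ minus unsorted one of 0.66.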

How the data were processed

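RNA was hybridised to Affymetrix Mouse Gene 1.0 ST arrays. The authors summarised the probes to intensities per transcript cluster by RMA in APT 1.12.0 with NetAffx annotation release 31, and the deposited intensities are on a linear scale, already background corrected and normalized between arrays. Their genome build was not given in the sources used here. Log2 was taken of the deposited values. Of 35556 transcript clusters, 21789 have 1 symbol in the platform annotation, 1621 several and 12146 none. Where a symbol had several clusters, the brightest on average over all 36 arrays was kept, which left 19938 genes. All were tested with limma 3.58.1 (R 4.3.3, statmod 1.5.0) on group means with experiment as a random block (duplicateCorrelation: 0.396 for the 20 sorted and 0.375 for the 16 unsorted arrays, fitted apart), two-sided, with Benjamini-Hochberg adjustment over all genes at 0.05 and intervals of 95%. The code was tested on simulated data. Other steps used Python 3.11.15 (pandas 2.3.3, numpy 2.4.6, matplotlib 3.10.9). Background left after RMA can make the differences of dim genes too small, and intensities of different genes are not comparable as levels. The number of arrays limits the precision.

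The members and lists were chosen with earlier results of these data known. Named with values per array were the members with the largest and smallest sorting difference in each role (in roles of up to 3 members the largest), those with the smallest p for sTM (5 sorted, 5 unsorted, 3 interaction) and up to 3 genes in each direction of each pathway list. Values outside this rule, such as Mcm2 by experiment and Rrm2 and Mcm7 in unsorted cells, were chosen after they were seen. Alternatives changed the experiment term, the block, the filter on dim genes, the choice of cluster, the scaling and the moderation, and left out each array or experiment in turn. Promoters are from RefSeq windows 250 bases before to 50 after each start.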

Additional observations from a re-analysis of the deposited data

Results flagged for a closer look

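In 162 comparisons of the arrays of a group with each other, over 27 named genes, 5 held an array whose distance from its nearest neighbour passed Dixon's 95% limit, where chance gives about 1 in 20. Orc5 had its highest value in untreated TM+ DCs, 8.55 in experiment 3 array 2, with the next array at 8.44. Cdc6 was highest at 7.91 in sTM-treated TM+ DCs, in experiment 2 array 2, with the next at 7.64. In untreated TM- DCs of experiment 4, array 1 was lowest for Pole (5.28, next 5.87) and for Mcm2 (7.39, next 7.77). Orc1 was highest at 6.66 in sTM-treated TM- DCs, in experiment 3 array 2, with the next at 6.16.

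In TM+ DCs, 16 of the 53 genes had both sTM-treated arrays on one side of both untreated arrays in experiment 3 and on the opposite side in experiment 4. In TM- DCs there were 12 such genes. The shares of all genes that did so are not given here, so these counts do not set the replication genes apart. These differences between experiments were not tested.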

How the results depend on the processing

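The counts of replication genes called in TM+ against TM- DCs were 46 to 50 of 53 over both treatments under every alternative except leaving out experiment 4 (34). For untreated cultures they were 40 to 48 under the alternatives other than leaving out experiment 4, which gave 17, and for sTM-treated cultures 35 to 49. Leaving out 1 array at a time gave 48 to 50, 41 to 47 and 37 to 44. The shares of all genes called in these fits of TM+ against TM- DCs are not given here. Array numbers were not shown to pair TM+ with TM- arrays (correlation of deviations -0.25 to 0.31 over 10 pairs, 4 above 0.1), nor sTM-treated with untreated arrays in every group. With 2 arrays per group, both pairs of an experiment and treatment give the same correlation, so the 10 values are not separate. With a replicate block of experiment, treatment and number, 48, 42 and 38 genes were called, and with a replicate block of experiment and number 0 for sTM in sorted cells, 0 for the interaction and 0 for sTM in unsorted cells. For sTM in sorted cells 0 genes were called except with array weights (2), and for the interaction 0 except without experiment 3 (4). Leaving out 1 array gave 0 to 0 in both and in unsorted cells.

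Of the 3 genes not called, Gins3 turned negative when arrays were centred on their 75th percentile (-0.10), after quantile normalization (-0.067), without experiment 4 (-0.29) and without some single arrays (range over all single arrays -0.080 to 0.076), and Pold3 did with that centring (-0.042) and without experiment 3 (-0.041), while without experiment 2 Pold3 was called higher (0.19). Centring moved the median of all genes to -0.20, against -0.08. Tyms was -0.052 without experiment 4 and lost its call under 14 other alternatives. In the sTM comparison of sorted cells, Cdc6 was -0.010 without experiment 3, Mcm2 0.034 with array weights and Cdc7 0.022 without experiment 4, and none of these was called. The 8-letter E2F motif lowered the shares to 36.4% of the replication genes and 2.6% of all genes, since it is longer. Otherwise the cause was not tested.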
